A study of Drosophila melanogaster with 8 samples.

Results

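The promoters described here are one-way starts of transcription at which CDK9 binding peaked inside the transcribed side. They were selected on the peak list of one chromatin immunoprecipitation library, mock replicate 2. A peak entered the set when it lay on an autosome, when its summit was 1 to 300 bp downstream of the nearest annotated start on that start's own strand, and when no start on the other strand lay within 1000 bp. In all, 400 of the 2884 autosomal peaks in that list met the rule (13.9%), out of 3804 peaks in the list and 10909 peaks in the 4 lists of the series. They mark 399 starts of 392 genes, of which 377 peaks belong to protein-coding genes, 21 to noncoding RNAs, 1 to a small nuclear RNA and 1 to a small nucleolar RNA. Because the rule used the presence and the summit of the peak in mock replicate 2, those values are descriptions, and only the other 3 lists carry information that the choice did not fix.

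CDK9 ChIP-seq was made from Kc167 cells, a line derived from Drosophila melanogaster embryos with features of blood cells (hemocytes). Mock cells went through transfection without any RNA, siAGO2 cells received interfering RNA against Argonaute 2 (AGO2), and both were collected 3 days later, with 2 libraries each. The antibody was against CDK9, and each library was called against input by the authors to give 1 peak list. The labels do not say whether the replicates came from separate cultures, so p-values measure only the spread between these libraries.

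CDK9 is the kinase of P-TEFb, which it forms with Cyclin T. At many fly genes RNA polymerase II starts, travels a short way and pauses just inside the gene under the control of NELF and DSIF, and phosphorylation by P-TEFb releases it into elongation. A large share of P-TEFb is held inactive by the 7SK RNA and Hexim. AGO2 is the effector of small interfering RNA silencing in flies and is also found in the nucleus. A one-way promoter has a single direction of annotated transcription, so upstream and downstream of its start can be told apart.

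The promoter sequences of those of the 10 tallest members that lie on 2L, 3L and 3R, and of 3 one-way promoters with the summit upstream of the start on the same arms, are shown so that the DNA of the 2 classes can be compared. Each runs from 120 bases before the start to its base 30, 5′ to 3′ on the gene's strand, from the RefSeq Release 6 (dm6) genome. A single capital letter marks the start, except in cpo, where the start is the C of the capital word TCAGT. Longer capitals mark GAGAG or its reverse complement CTCTC (the core of the element bound by GAGA factor), the TATA box word TATAAA, or the initiator word TCAGT at the start. The members are jagn (chr3R:5779195-5779344, plus strand), cyst (chr2L:19508735-19508884, minus), chic (chr2L:5980452-5980601, minus), RtcB (chr2L:19430523-19430672, plus), Trc8 (chr3R:29503520-29503669, minus), CG4733 (chr3R:19890569-19890718, plus) and lncRNA:CR46036 (chr3R:17700621-17700770, plus).
jagn: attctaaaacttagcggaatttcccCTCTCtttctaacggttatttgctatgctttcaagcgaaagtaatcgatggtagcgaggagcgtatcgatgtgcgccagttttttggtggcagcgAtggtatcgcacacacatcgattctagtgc
cyst: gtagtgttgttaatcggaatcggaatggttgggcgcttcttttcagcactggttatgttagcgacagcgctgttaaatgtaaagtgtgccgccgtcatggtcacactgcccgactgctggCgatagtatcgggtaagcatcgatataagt
chic: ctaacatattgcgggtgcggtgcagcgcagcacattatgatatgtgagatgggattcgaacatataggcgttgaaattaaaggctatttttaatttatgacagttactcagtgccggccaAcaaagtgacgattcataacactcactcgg
RtcB: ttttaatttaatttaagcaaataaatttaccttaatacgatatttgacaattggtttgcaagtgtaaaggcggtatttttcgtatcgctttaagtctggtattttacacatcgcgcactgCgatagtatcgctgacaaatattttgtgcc
Trc8: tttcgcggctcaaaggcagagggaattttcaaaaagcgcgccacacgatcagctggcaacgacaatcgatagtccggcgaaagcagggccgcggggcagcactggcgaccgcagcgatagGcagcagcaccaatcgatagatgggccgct
CG4733: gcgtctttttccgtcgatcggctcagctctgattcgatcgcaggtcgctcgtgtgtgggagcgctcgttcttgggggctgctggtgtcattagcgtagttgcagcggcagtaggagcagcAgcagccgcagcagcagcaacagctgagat
lncRNA:CR46036: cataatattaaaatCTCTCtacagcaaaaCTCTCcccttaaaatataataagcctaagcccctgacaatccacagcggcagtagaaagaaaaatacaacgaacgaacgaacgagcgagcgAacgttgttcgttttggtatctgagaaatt
The promoters with the summit upstream are those of CG1146 (chr3L:2490100-2490249, plus), Tet (chr3L:2821074-2821223, minus) and cpo (chr3R:17943986-17944135, plus), which had the highest peaks of their class in mock replicate 2 among those on these arms called in all 4 lists.
CG1146: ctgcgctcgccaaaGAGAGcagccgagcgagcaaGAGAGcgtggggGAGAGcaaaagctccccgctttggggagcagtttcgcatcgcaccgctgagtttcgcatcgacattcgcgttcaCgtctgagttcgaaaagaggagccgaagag
Tet: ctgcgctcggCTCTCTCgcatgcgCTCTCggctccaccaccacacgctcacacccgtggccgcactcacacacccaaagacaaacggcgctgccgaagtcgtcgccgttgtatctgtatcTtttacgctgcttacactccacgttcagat
cpo: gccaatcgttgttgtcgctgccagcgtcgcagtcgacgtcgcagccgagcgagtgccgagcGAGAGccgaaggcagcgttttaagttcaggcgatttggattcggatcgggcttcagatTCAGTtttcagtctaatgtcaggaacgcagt
All 3 of the latter carry at least 1 GAGA word in the 120 bases before the start, as do 4 of the 10 tallest members (jagn, lncRNA:CR46036 and, not shown, Pym and Arc1). The 300 bases before the start held 32% to 51.7% G or C in the 10 members and 54.7% to 57.7% in the 3 others. The 300 bases after the start ran from 47.7% to 63.3% in the 10 members and from 41% to 47.3% in the others. These few promoters were picked by height and are no measure of their classes. Trc8 and CG4733, at 60% in the 120 bases before the start, were as rich there as the promoters with the summit upstream.

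The difference in base composition ran through both classes. Over the 399 member starts the median GC content was 51% in the 300 bp downstream and 38% in the 300 bp upstream, and the downstream side was the richer in 347 starts (87.0%). At the 484 one-way starts with the summit 0 to 300 bp upstream the medians were 45.2% downstream and 49.3% upstream, and the downstream side was the richer in 171 (35.3%). All 12736 one-way autosomal starts had medians of 44.3% and 39.3%, with the downstream side richer in 66.9%. Divergent promoters with a peak, which had a start on the other strand within 1000 bp, were close to the members. Their 687 starts had medians of 50.3% downstream and 37.7% upstream, with the downstream side richer in 84.3%. At the summits themselves the median GC content over 101 bp was 54.5% in members and 55.4% in promoters with the summit upstream, and at the mirror position across the start it was 41.6% and 47.5%. The summit window was the richer of the pair at 294 of 400 members (73.5%) and 375 of 485 promoters with the summit upstream (77.3%). Among members it was the richer at 103 of 108 with the summit 201 to 300 bp downstream and at 78 of 173 with the summit at 1 to 100 bp. Where the summit lay close to the start the windows shared bases, and a tie counted as not richer. The near and far counts are therefore not like for like. The part of base composition in where summits were called was not tested.

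Words of known core promoter elements were counted in fixed windows on the strand of the gene, unless both strands are named. GAGAG on either strand, from 150 bp upstream to base 50, was present at 33.8% of member starts, 68.2% of starts with the summit upstream, 27.5% of all one-way starts and 24.9% of all autosomal starts. Divergent promoters, which had a summit within 300 bp of a start and another start within 1000 bp on the other strand, held it at 25.0%. The initiator word TCAGT within 6 bp of the start was at 8.02% of members, 20.5% of starts with the summit upstream, 4.22% of divergent starts, 9.31% of all one-way starts and 7.64% of all. The DRE word TATCGATA, bound by DREF, stood at 10.5% of members, 3.72% of starts with the summit upstream and 17.0% of divergent starts. It was at 2.85% of all one-way starts and 5.25% of all autosomal starts. By the GAGA and initiator words in these windows the members were thus nearer to divergent promoters than to the other one-way promoters. By the DRE word they lay in between. The GAGA shares depended on the window. In the 300 bp upstream they were 38.1% of members, 77.1% of starts with the summit upstream and 28.1% of divergent starts. In the 300 bp downstream they were closer, at 40.4%, 43.8% and 36.1% in the same order.

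Words found downstream of the start gave another picture. Pause button words (the word CGAACG, or else the word CGATCG, or else the word CGGACG, or else the word CGGTCG, at bases 10 to 60), a feature of promoters with paused polymerase, were at 13.0% of members, 16.1% of starts with the summit upstream, 8.01% of divergent starts, 7.11% of all one-way starts and 6.19% of all autosomal starts. The downstream element words, which are AGACG, or else the word GGACG, or else the word GGTTG, at bases 20 to 40, were at 11.8%, 14.5%, 5.82%, 6.41% and 5.82%. TATAAA, 40 to 20 bp upstream, was rare throughout, at 2.76% of members, 5.17% of starts with the summit upstream and 1.60% of divergent starts. It was at 6.29% of all one-way starts and 5.77% of all starts. Within the members, GAGA words were at 42.8% of those with the summit at 1 to 100 bp and 26.9% of those at 201 to 300 bp, and pause button words at 19.7% and 6.48%. Matches to short words are descriptions of the sequence and say nothing of binding by a factor.

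**Figure D1:**
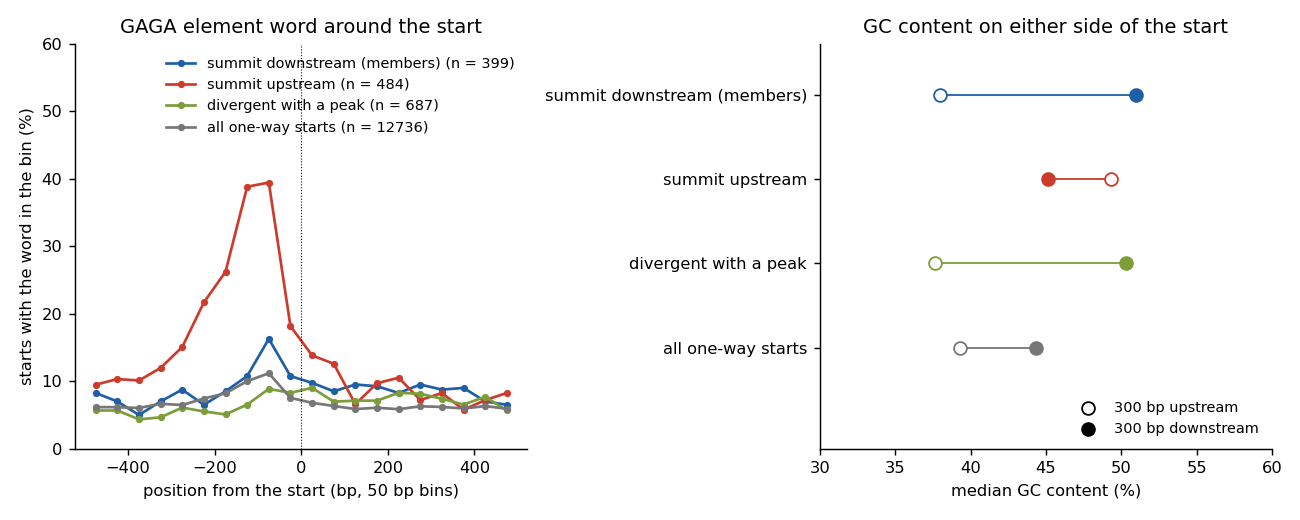
Left, share of starts (%) holding the GAGA word on either strand in each 50 bp bin around the start, and right, median GC content (%) of the 300 bp upstream (open) and downstream (filled), for members, one-way promoters with the summit upstream, divergent promoters and all one-way starts. Promoters with the summit upstream reach 39.5% in the bin centred 75 bp before the start and members 16.3%, and members have 51% GC downstream against 38% upstream.

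The members' genes differed in size as well. The median annotated length of the gene was 4440.5 bp for members, 13042 bp for promoters with the summit upstream and 3018 bp for divergent promoters. The median first exon was 393 bp, 362 bp and 349 bp. Another start on the same strand lay within 300 bp at 52 members (13.0%), where the distance depends on which start is nearest.

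In mock replicate 2 the member summits lay a median of 121 bp downstream of the start, with the middle quartiles between 46 and 213.5 bp. In all, 173 summits were at 1 to 100 bp, 119 at 101 to 200 bp and 108 at 201 to 300 bp. The summit fell in a 5′ untranslated region at 233 members, in coding sequence at 119, in an intron at 25, in a noncoding exon at 20 and outside annotated exons and introns at 3. The called interval covered the start itself at 238 members (59.5%), compared with 404 of 485 (83.3%) promoters with the summit upstream. The members lay on 4 chromosome arms, with 89 on 2L, 122 on 2R, 82 on 3L, 107 on 3R and none on chromosome 4, which held 4 autosomal peaks. Just inside the lower bound were lncRNA:CR44206 and Srrm1 at 1 bp and cyst at 3 bp, and just outside were Eip63E and CG11790 at 0 bp and CG2811 at -3 bp. At the upper bound Pi3K21B, ND-B17 and tsu lay at 299 bp, while Prosbeta7, Gnf1 and Wdr59 missed it at 301, 302 and 304 bp.

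Member peaks were of middling height. Fold enrichment at the summit over local background had a median of 4.47, from 2.57 to 18.2, and 16 reads at the median summit, from 7 to 76. Ranked by −log10 q within the whole list, the median member stood at percentile 46.8. Promoters with the summit upstream had a median fold of 5.91, 22 reads and percentile 73.0, and divergent promoters 4.54, 16 reads and percentile 48.7. Height fell with distance from the start, from a median percentile of 57.0 for summits at 1 to 100 bp to 42.8 at 101 to 200 bp and 36.1 at 201 to 300 bp.

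Peaks were then followed into the 3 lists that did not choose them, with an overlap of at least 1 bp. Mock replicate 1 held a peak at 178 members (44.5%, against 46.5% of all autosomal peaks of mock replicate 2). In siAGO2 replicate 1 it was 142 (35.5%, against 37.3%), and in siAGO2 replicate 2 it was 176 (44.0%, against 46.1%). In all 3 lists 87 members were found again (21.8%, against 26.5%), and in none of them 148 (37.0%, against 38.3%). In each single list members were thus followed about as often as an autosomal peak at large, at slightly lower shares. They were found less often in all 3 lists, while the share found in none was slightly lower too. The autosomal peaks include the members.

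The mean share over the siAGO2 libraries was 39.8% ± 6.01 (SD, n = 2), which is 4.75 percentage points below mock replicate 1. With mock replicate 1 as the only mock library, an exact permutation test over the 3 libraries cannot go below 0.3333, so the difference is given as a description. Mock replicate 1 and siAGO2 replicate 2 differed by 0.5 points, and siAGO2 replicate 1 stood apart from both. Without siAGO2 replicate 2 the difference was 9 points, and with peaks above the median of each list 9.62 points, lower in siAGO2 both times. Taking as many top peaks from each list as the shortest held (1707) turned the difference to 2.38 points higher in siAGO2. When the rule was applied to mock replicate 1 instead and the members followed into mock replicate 2, the mean siAGO2 share was 18.3 points below it. The lists differed in depth, read here from the background at the peaks. Its lowest value was 2.29, 1.21, 0.814 and 0.864 reads in mock 1, mock 2, siAGO2 1 and siAGO2 2. Its median was 4.74, 2.80, 2.01 and 1.94 reads in the same order. They also differed in length, with 3103, 3804, 1707 and 2295 peaks. Depth and knockdown cannot be told apart in these shares, nor can fewer cells with CDK9 at a site and less CDK9 per cell.

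Promoters with the summit upstream were followed more often than members in each list. Mock replicate 1 held a peak at 63.7% of them, siAGO2 replicate 1 at 61.4% and siAGO2 replicate 2 at 67.6%. Members were lower by a mean of 22.9 points (SD 3.42, n = 3), lower in 3 of 3 lists, and an exact two-sided sign-flip permutation test gave p = 0.25, the smallest that 3 lists allow. Divergent promoters, at 44.5%, 33.5% and 44.3%, lay close to the members in each list.

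Height moved with this difference. Within the tallest quartile of the mock replicate 2 list, mock replicate 1 held a peak at 73 of 79 members (92.4%) and 215 of 226 promoters with the summit upstream (95.1%). In the third quartile the shares were 51.9% and 50%, in the second 20.7% and 23.4%, and in the lowest 26.0% and 24.1%. Against siAGO2 replicate 1 the members were lower in the tallest quartile (81.0% and 92.9%), the third (32.1% and 47.6%) and the lowest (13.5% and 20.7%), and higher in the second (27.0% and 22.1%). In siAGO2 replicate 2 the tallest quartile gave 86.1% and 97.3%, the third 53.8% and 54.0%, the second 26.1% and 26.0%, and the lowest 21.2% and 36.2%. Of the members 19.8% were in the tallest quartile, and of promoters with the summit upstream 46.6%.

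**Figure D2:**
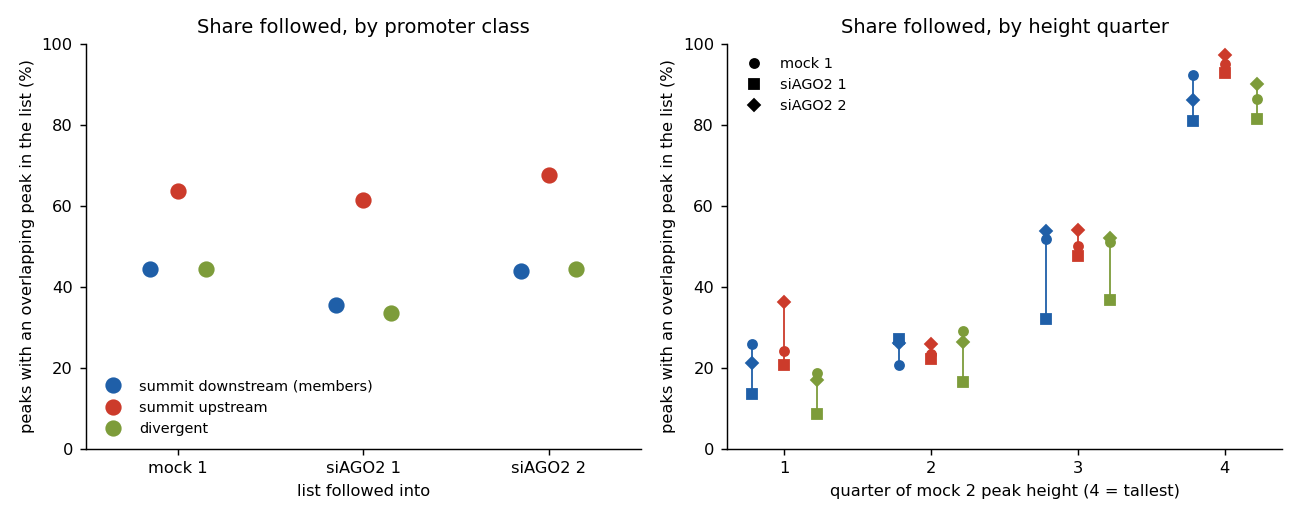
Share of mock replicate 2 peaks (%) with an overlapping peak in each of the other 3 lists, by promoter class (left) and by class and height quartile (right, 4 is the tallest). Members sit at 44.5%, 35.5% and 44.0% and promoters with the summit upstream at 63.7%, 61.4% and 67.6%. In the tallest quartile members are at 92.4%, 81.0% and 86.1% and promoters with the summit upstream at 95.1%, 92.9% and 97.3%.

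The distance of the summit from the start also went with following. Members with the summit at 1 to 100 bp were found in mock replicate 1 at 50.3%, in siAGO2 replicate 1 at 49.1% and in siAGO2 replicate 2 at 48.6%. For summits at 101 to 200 bp the shares were 40.3%, 27.7% and 40.3%, and at 201 to 300 bp 39.8%, 22.2% and 40.7%. The near summits were thus alike in the 3 lists, and the far ones were lowest in siAGO2 replicate 1. The difference between near and far summits was not tested, and near summits were also taller.

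Where a member was found again, its summit lay at 1 to 300 bp in 131 of 178 in mock replicate 1 (73.6%), 98 of 142 in siAGO2 replicate 1 (69.0%) and 127 of 176 in siAGO2 replicate 2 (72.2%). The summit had moved to the upstream side or onto the start itself in 18.0%, 25.4% and 18.8%. The median positions were 124 bp in mock replicate 1, 83.5 bp in siAGO2 replicate 1 and 111.5 bp in siAGO2 replicate 2. The siAGO2 mean was 97.5 bp ± 19.8 (SD, n = 2), 26.5 bp nearer the start than mock replicate 1, again a description beside a single mock library. The difference was 12.5 bp without siAGO2 replicate 1 and 40.5 bp without siAGO2 replicate 2. It shrank to 6 bp with an overlap of at least 50% of both peaks and to 2 bp with members chosen in mock replicate 1. Each list's median is over its own followed members. Over the 87 members called in all 4 lists the medians were 95 bp in mock replicate 1 and 65 bp in mock replicate 2. In siAGO2 replicates 1 and 2 they were 113 and 89 bp, on either side of mock replicate 1.

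Single summits were placed loosely in every pair of lists. The median distance between the summit in mock replicate 2 and that in the other list was 55.5 bp in mock replicate 1, 53.5 bp in siAGO2 replicate 1 and 56 bp in siAGO2 replicate 2. Pearson's r of the positions was 0.567 over 178 members, 0.539 over 142 and 0.540 over 176, given as a description since members within a list share its library. Among the 87 members called in all 4 lists, 45 kept all 4 summits within 1 to 300 bp and 12 had them within 50 bp of each other, with a median spread of 113 bp.

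**Figure D3:**
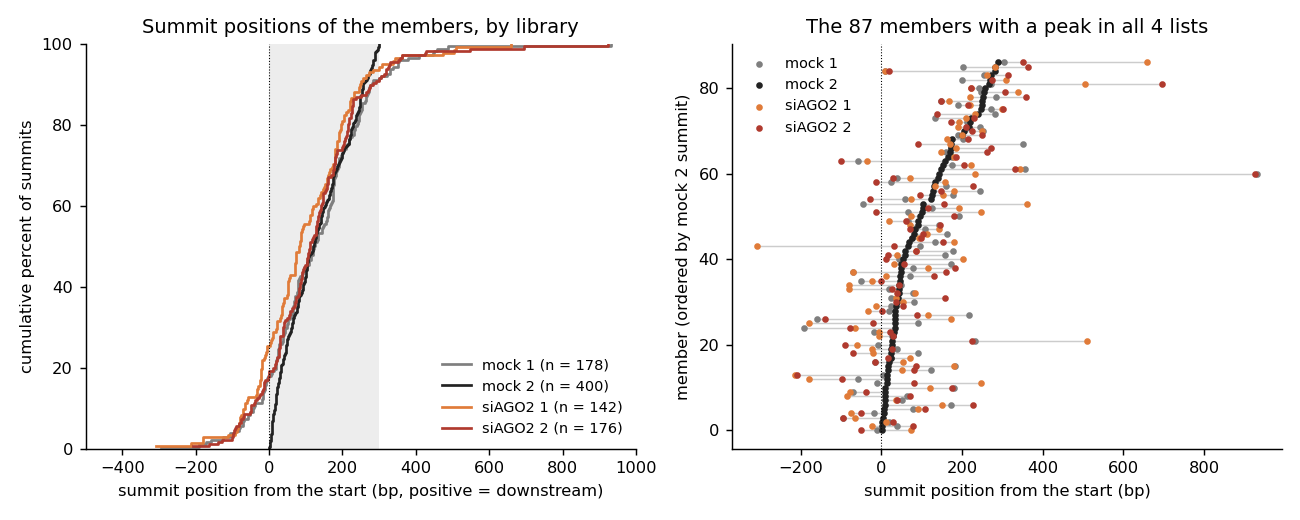
Left, cumulative share (%) of member summits by position from the start (bp, shaded where the rule applies) in each library, and right, the 4 summits of each of the 87 members called in all lists. The medians are 121 bp in mock 2, which chose the members, and 124, 83.5 and 111.5 bp in mock 1, siAGO2 1 and siAGO2 2, and the 4 summits of a member span a median of 113 bp.

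Each list was also searched by the same rule on its own, so that none was favoured by the choice. Summits downstream of one-way starts numbered 257 and 400 in mock replicates 1 and 2, against 179 and 224 in siAGO2 replicates 1 and 2. Summits 0 to 300 bp upstream numbered 352, 485, 334 and 354. The downstream share of these summits was 42.2% and 45.2% for mock, against 34.9% and 38.8% for siAGO2, and the groups did not overlap. The means were 43.7% ± 2.12 and 36.8% ± 2.73 (SD, n = 2 each), a difference of 6.88 percentage points, and an exact two-sided permutation test gave p = 0.3333, the smallest that 2 against 2 allows.

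The difference in share was small when the lists were cut to equal length. With the 1707 top peaks of each list the shares were 37.3% and 33.2% in mock and 34.9% and 34.8% in siAGO2, a difference of 0.364 points with the groups overlapping (exact permutation p = 1). With the window narrowed to 150 bp on each side the difference was 1.86 points (p = 0.667 in the exact permutation test). It stayed at 7.91 points with peaks above each list's median and at 7.47 points with starts of protein-coding genes alone. With the other-strand start more than 2000 bp away it was 6.31 points. The siAGO2 share was the lower under each of these settings. Of the 399 member starts, 130 were also downstream by mock replicate 1's own summits (32.6% of the 399 and 51.0% of that list's 255). For siAGO2 replicate 1 it was 98 (24.6% and 54.7% of its 179) and for siAGO2 replicate 2 124 (31.1% and 55.6% of its 223).

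**Figure D4:**
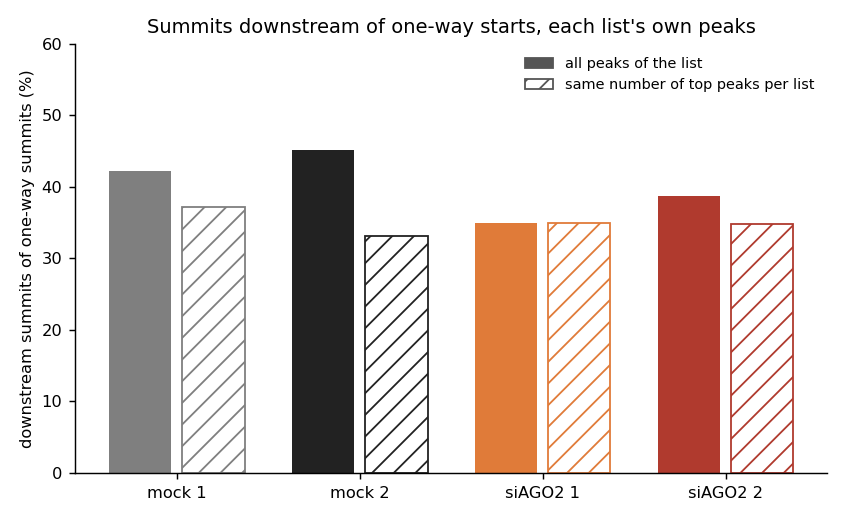
Share (%) of summits near one-way starts that lay 1 to 300 bp downstream, in each list's own peaks (filled) and in the 1707 top peaks of each list (hatched). The mock lists are at 42.2% and 45.2% and the siAGO2 lists at 34.9% and 38.8%, while with equal numbers of peaks the range is 33.2% to 37.3%.

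The words were set beside the members' own peaks as well. The 135 members with a GAGA word had a median percentile of 54.2 in mock replicate 2 and a median summit at 86 bp, and the 264 without one 43.4 and 136 bp. Mock replicate 1 held 49.6% of those with the word, siAGO2 replicate 1 held 41.5% and siAGO2 replicate 2 held 53.3%, and of those without it 42.0%, 32.6% and 39.4%. Members with a GAGA word were thus taller and nearer the start in the list that chose them, and were met again more often in each of the other 3. The 42 members with a DRE word were lower, at a median percentile of 30.2, and were found at 42.9%, 35.7% and 35.7%, against 44.8%, 35.6% and 45.1% of those without it. These differences between members were not tested, since members are not replicates.

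Across the 87 members called in all lists, the median summit held 29 and 27 reads in mock and 17 and 17 in siAGO2. The median fold over local background was 4.71 and 6.78 in mock, against 5.70 and 5.93 in siAGO2, and the groups overlapped. A read is added to both sides of this ratio, which lowers it more where reads are few, so folds are not free of depth. Median percentiles were 75.6 and 83.4 for mock, against 61.9 and 71.0 for siAGO2. The percentile is also read against lists of different length, and mock replicate 2 chose the members.

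The tallest members were named by their mean percentile over the 4 lists. At jagn, which encodes the endoplasmic reticulum protein Jagunal, the percentile was 97.9 and 98.2 in the mock libraries and 96.7 and 94.4 in the siAGO2 libraries, with 63, 58, 40 and 35 reads at the summit. At cyst it was 96.2 and 98.0 in mock and 96.3 and 96.2 in siAGO2. The profilin gene chic had the highest fold of the set in mock replicate 2, at 8.49 and 18.2 in mock and 6.54 and 18.7 in siAGO2. The siAGO2 values overlapped the mock values at cyst and chic, while at jagn both lay slightly below both mock values by percentile and overlapped them by rank among the regions shared by all libraries.

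The other members of the top 10 were Psc, a Polycomb group protein, RtcB, the RNA ligase of tRNA splicing, Pym, a partner of the exon junction complex, the E3 ubiquitin ligase gene Trc8, CG4733, Arc1 and lncRNA:CR46036. Their percentiles ranged from 79.4 to 97.5 over the 4 libraries. The summit of RtcB lay at 283 bp in mock replicate 2 and at 9, 9 and 18 bp in mock 1, siAGO2 1 and siAGO2 2, within the rule's window in all of them but far from the place in the list that chose it. The summit of lncRNA:CR46036 was at 304, 289, 658 and 351 bp in mock 1, mock 2, siAGO2 1 and siAGO2 2, so that only the list used for the choice placed it within 300 bp. By contrast, the chic summits were at 202, 175, 164 and 214 bp, and those of Psc at 108, 83, 143 and 70 bp, inside the gene in every library.

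Of the members, 36 had a peak in both mock lists and in neither siAGO2 list (9.0%), and 15 had one in mock replicate 2 and both siAGO2 lists but not in mock replicate 1 (3.75%). Over all autosomal peaks of mock replicate 2 these shares were 8.81% and 3.99%. The tallest of the 36 were CG9399, CG30046, CG4629, emc and Cmpk. At emc, which encodes an inhibitor of basic helix-loop-helix factors, the percentile was 61.6 in mock replicate 1 and 71.1 in mock replicate 2, and its summit lay at -81 and 62 bp. The 5 stood between percentiles 54.2 and 82.0 in the mock lists.

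The tallest of the 15 were tna, rgn, CG5510, Cse1, which returns importin alpha to the cytoplasm, and RpL6, a protein of the large ribosomal subunit. At tna the percentile was 72.5 in mock replicate 2 and 90.1 and 79.8 in siAGO2, and at RpL6 74.2 in mock replicate 2 and 44.2 and 42.7 in siAGO2. Of the 148 members seen in mock replicate 2 alone, the tallest were Pp1alpha-96A, a catalytic subunit of protein phosphatase 1, Pxn, CG13117, CG12024 and sisRNA:CR46357, at percentiles 65.2 to 77.9. The 148 had a median of 13 reads and percentile 29.8, and the 87 called in all lists 27 reads and percentile 83.4.

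Heights were compared between treatments over regions called in all 4 libraries, on the normal score of each peak's rank by −log10 q among those regions in its library. A score of 0 is the middle of the shared regions, and a difference of 1 is 1 SD of the scores. The comparison held 1022 merged regions, of which 89 contained a member. By limma, 3 member regions, those of Sap47, CG3164 and tapas, were higher in siAGO2 at an unadjusted p under 0.05 (3.33% of all regions were) and that of LanA was lower (1 region, against 3.13%). After Benjamini-Hochberg adjustment over all regions none of either was called (0%), and the smallest adjusted p was 0.671. The median difference was 0.04 over member regions and -0.01 over all regions. Both siAGO2 scores were above both mock scores in 14 member regions (17.6% of all regions were) and below them in 14 (16.4%). Of the 89 member regions these counts are 3.37% and 1.12% at the unadjusted p, and 15.7% in each direction for scores that did not overlap. Without siAGO2 replicate 2 the count of member regions at an unadjusted p under 0.05 rose from 4 to 13, and without siAGO2 replicate 1 to 7, with none after adjustment.

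The largest differences among members were all short of the adjusted threshold. LanA, the alpha chain of laminin (peak at chr3L:6217562-6218120), stood at percentiles 77.0 and 82.9 in mock, against 12.7 and 30.9 in siAGO2, with 28, 20, 14 and 13 reads. Both siAGO2 values lay far below both mock values, and the score differed by -1.22 (SE 0.36, limma adjusted p = 0.671). Sap47, a synapse-associated protein, went the other way, at percentiles 8.31 and 57.0 in mock and 63.2 and 59.1 in siAGO2, with 17, 18, 16 and 17 reads. Its score differed by 1.36 (SE 0.45, limma adjusted p = 0.671), with mock replicate 1 the lowest of the 4.

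The gene snRNA:7SKa encodes the 7SK RNA that holds P-TEFb in its inactive form (peak at chr3R:7474589-7474902). Its percentiles were 81.9 and 74.5 in mock and 27.9 and 21.1 in siAGO2, with 35, 24, 17 and 13 reads at the summit. The fold over local background was 4.44 and 5.62 in mock and 3.78 and 3.80 in siAGO2, so the groups did not overlap on either scale. The score differed by -0.97 (SE 0.42, limma adjusted p = 0.803). The 4 summits lay at 245, 217, 190 and 210 bp, all inside the gene's single noncoding exon of 444 bp. Its 120 bases before the start (chr3R:7474967-7475116, minus strand) are shown for the TATA box in capitals, whose first base is at -31.
snRNA:7SKa: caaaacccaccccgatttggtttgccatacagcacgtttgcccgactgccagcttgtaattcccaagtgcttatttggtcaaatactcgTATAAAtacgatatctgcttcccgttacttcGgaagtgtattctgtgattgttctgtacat

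The other large differences were at srl, the fly PGC-1 homologue, at KP78a, a kinase gene, and at Gdap2. At srl the percentiles were 67.9 and 87.8 in mock and 14.7 and 47.4 in siAGO2. KP78a stood at 8.31 and 74.7 in mock and 73.0 and 58.6 in siAGO2, and Gdap2 at 62.4 and 21.5 in mock and 79.8 and 58.2 in siAGO2. The groups did not overlap at srl, and at KP78a and Gdap2 they overlapped by percentile in the whole list. Ranked among the shared regions alone, KP78a and Gdap2 had both siAGO2 scores above both mock scores.

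**Figure D5:**
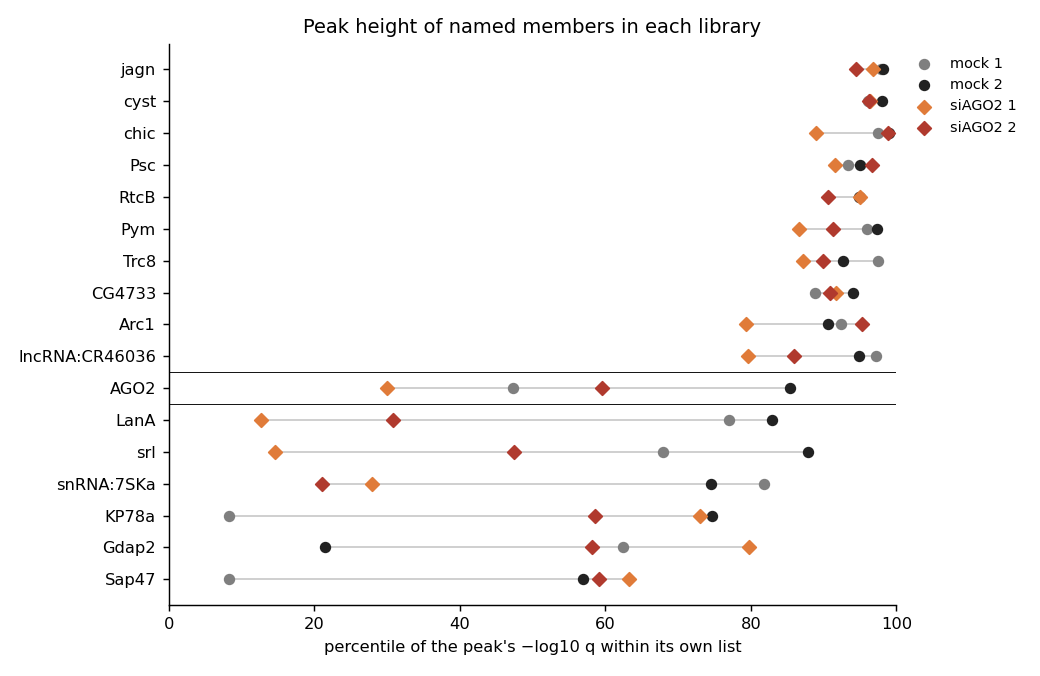
Percentile of each peak's −log10 q within its own list for the 10 tallest members, for AGO2 and for the 6 members with the most extreme differences in score (circles mock, diamonds siAGO2). The top 10 lie between 79.4 and 99.0 in all libraries, while LanA and snRNA:7SKa run from 74.5 or more in mock to 30.9 or less in siAGO2.

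AGO2 was itself a member, with its summit in coding sequence (peak at chr3L:15554220-15554574). The percentile was 47.4 and 85.3 in mock and 30.1 and 59.5 in siAGO2, with 19, 26, 11 and 12 reads, and the summits lay at 284, 252, 221 and 358 bp. The values of mock and siAGO2 overlapped, and a CDK9 peak is no measure of the knockdown. None of the other genes shown by the study (vri, Socs36E, Traf4, betaTub60D and cv-2) was a member.

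No member was found among the genes of the elongation machinery listed for comparison. The lists held 5 genes of P-TEFb and its partners, 6 of NELF and DSIF, 4 of the super elongation complex, 14 of other elongation kinases and factors, and 4 of GAGA and motif 1 factors. Of these 33 genes 28 are autosomal and could have been members, and 2.55% of all 15351 annotated autosomal genes were, so that 0 of 28 says little. Of 14 hemocyte markers 1 was a member, Pxn, which encodes peroxidasin, with 22 reads and percentile 76.6 in mock replicate 2 and no peak in the other lists. Any peak within 1500 bp of a start was found at 5, 5, 3 and 5 of the 14 hemocyte markers in mock 1, mock 2, siAGO2 1 and siAGO2 2. Hml, NimC1, NimC4, eater, crq and Ppn had none in any list. Such peaks were at 0, 1, 0 and 1 of 5 neuron markers, and at none of the 5 muscle, 4 fat body and 4 germ line markers. The share of all annotated genes with such a peak was not counted, so these counts are no measure of cell type. A peak near a start does not say that the gene is expressed.

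Long noncoding RNAs were read from the symbols after the members had been seen. They gave 18 members (4.5%), at a median percentile of 69.4. Of these, 10 were in all lists (21.8% of all members were) and 4 in no other (37.0% of all members). They also gave 21 promoters with the summit upstream (4.33%), at a median percentile of 81.8, with 12 in all lists. Among divergent promoters they gave 13 (1.88%), at a median percentile of 73.0, with 7 in all lists. They were 8.79% of the other autosomal peaks. Their height and following were thus not particular to the members.

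Regulators of signalling among the members, picked out after their names were seen, included InR, the insulin receptor, and kay, the fly homologue of Fos. InR was a member at 2 of its starts. At the first the percentiles were 90.1 and 91.8 in mock, against 85.4 and 73.1 in siAGO2, with summits at 160, 171, 147 and 263 bp, and at the second a peak was called in mock replicate 2 alone, at percentile 29.9 and 97 bp. At kay a peak was called in mock replicate 2 at percentile 14.9, 181 bp downstream, and in siAGO2 replicate 2 at percentile 56.5, 71 bp upstream. Both genes thus had starts at which the peak came and went between replicates of the same treatment.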

How the data were processed

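CDK9 ChIP-seq peak lists of 2 mock and 2 siAGO2 libraries of Kc167 cells were analysed, and the 4 input libraries were not used here. Per the labels and the study's methods, the authors trimmed reads with cutadapt, aligned them to dm6 with Bowtie2, removed duplicates with Picard and called each replicate against input with MACS2 2.1.1.20160309. The labels give cutadapt 1.10 and Picard 2.11.0, and the methods name other versions. The extension length for CDK9 is not given in the sources used here. The deposited columns hold a fold ratio of the summit over local background, the −log10 of its p-value and q-value, a score of 10 times −log10 q cut to a whole number (not used in any result), and the summit offset. The fold has a read added to both the summit and the background, which lowers it more where reads are few.

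Summits were set against starts of all transcripts of the Ensembl release 115 annotation (19677 autosomal starts), whose build was checked by reading ATG at the first codon of 3996 of 4000 transcripts in the RefSeq genome. Reads at the summit and background reads were solved from the deposited fold and p-value, with 100% of peaks solved within 0.0005 of −log10 p. Followed peaks overlapped by at least 1 bp. Shares and medians were compared by exact permutation over libraries, and normal scores by limma 3.58.1 in R 4.3.3 with Benjamini-Hochberg adjustment at 0.05. Python 3.11.15, pandas 2.3.3, numpy 2.4.6 and scipy 1.17.1 were used, and the member search, the rank comparison and the exact tests were tested on simulated data. Since no counts of reads over regions were at hand, a count test of the regions was not run.

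Members, gene lists and tests were chosen with earlier results of these data known. Genes were named by rule, as the 10 members with the highest mean percentile in all 4 lists, the 5 tallest of each pattern of lists, the 3 largest differences each way in the rank comparison, the 3 members and 3 non-members nearest each bound, and members among genes the study shows and the listed complexes and markers. The printed window, the 7SK promoter and the group of long noncoding RNAs were chosen after the values were seen. The alternatives were a stricter overlap, equal numbers of top peaks, peaks above the median, starts of protein-coding genes alone, other distances, choice in mock replicate 1, another measure or filter of rank, the replicate number as a block, and each library left out.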

Additional observations from a re-analysis of the deposited data

How the results depend on the processing

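The lower followed share of members in siAGO2 kept its direction under all alternatives run but 1. With 1707 top peaks of every list it turned to 2.38 points higher in siAGO2. Leaving out a siAGO2 library gave -0.5 to -9 points. The nearer median summit in siAGO2 kept its direction under every alternative run, at -2 to -40.5 bp. Over the 87 members called in all 4 lists it did not hold. The medians there were 113 and 89 bp in siAGO2 and 95 bp in mock replicate 1. The lower share of members than of promoters with the summit upstream kept its direction under every alternative run, at -20.2 to -25.1 points. The siAGO2 minus mock downstream share of each list's own summits ran from -0.364 to -8.81 points, and from -4.94 to -8.81 points with a library left out. No exact test among these could pass 0.05.

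The count of 4 member regions with an unadjusted p under 0.05 was between 3 and 6 under the other measures and filters of rank, and between 4 and 13 with a library left out (7 without siAGO2 replicate 1, 13 without siAGO2 replicate 2). Replicate numbers were shared by mock and siAGO2. The rank scores of same-numbered libraries did not deviate together (r = 0.00101 over 1022 regions). This is a single correlation, since with 2 libraries per group the deviations mirror each other. Whether same-numbered libraries shared a culture or day cannot be told from it, and the labels do not say. With the replicate number as a block the rank comparison gave 6 member regions, none after adjustment, and 2 of all regions after adjustment. The paired sign-flip of the downstream share gave -6.88 points (exact permutation p = 0.5, the smallest possible), from -7.31 and -6.44 in numbers 1 and 2. No alternative without mock replicate 1 could be given for the siAGO2 minus mock differences in followed share and followed summit position, since no mock list would remain beside the one that chose the members. Depth limits the rest: 7 reads at a summit were the fewest of a member in mock replicate 2, and absence from a list says only that no peak was called at that library's depth.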
